A study of Mus musculus with 4 samples.

Results

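Chemokine-high microglia were examined as the cells of the adult mouse brain that carried many transcripts of Ccl3 and Ccl4, the genes of the chemokines MIP-1α and MIP-1β. The cells were selected on measured values. A cell was a member when its unique molecular identifiers (UMIs, each a counted RNA molecule) of Ccl3 and Ccl4 summed to 4 or more and those of the class II antigen presentation genes Cd74, H2-Aa, H2-Ab1 and H2-Eb1 summed to less than 10. Among 13002 cells kept with at least 400 detected genes and at most 10% mitochondrial UMIs, 64 cells were members. They were compared with the 12219 kept cells that had no Ccl3 or Ccl4 UMI, always within the same library. Another 718 cells had 1 to 3 of these UMIs, and 1 cell was left out for its class II UMIs.

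The study examined how tissue handling alters gene expression in brain cells. The 4 libraries form 1 group, each from a male C57BL/6J mouse at postnatal day 90 with a tail vein injection of PBS (24 hours before tissue collection per the labels, another interval per the study's methods), so all comparisons were between cells of the same mouse. Cortex and hippocampus were dissociated by cold Dounce homogenization, a mechanical method without enzymes, live CD45 and CD11b positive cells were sorted, and the cells were profiled with the 10x Genomics 3′ kit, version 2. The libraries, called replicates 1 to 4, held 5867333 to 11275195 UMIs in 2619 to 3703 barcodes.

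Some facts of the libraries touch the results. Per the study's methods the sort of the last animal was interrupted and its cells spent longer at room temperature. The study's supplement calls that animal sample 4 and reports its signature of cell isolation almost only in that animal's cells. That gene list includes Ccl3 and Ccl4. The labels number the libraries differently and mention no interruption, so the animal was not matched to a library here. Replicate 4 stood apart in its immediate early genes, which neurons and myeloid cells switch on within minutes of a stimulus: their summed level in the comparison cells was 5325 CPM there and 3278 to 3490 CPM in the other libraries. Levels are in CPM, counts per 1e6 UMIs summed over a set of cells, with mitochondrial genes and the 6 genes of the selection rule left out of the total. The member share, the counts of calls and the gene lists are therefore also given without replicate 4. The kept cells of the libraries shared 81 barcodes. The barcodes of 3 members occurred in another library, and none of the matching cells there had a Ccl3 or Ccl4 UMI.

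As background, Ccl3 and Ccl4 are neighbouring genes of the CC chemokine family, secreted proteins that attract leukocytes through G protein-coupled receptors. In macrophages and microglia they are induced quickly by the transcription factor NF-κB and by AP-1 factors after pattern recognition or injury. Ccl3 lies on chromosome 11 at 83647844 to 83649355 (minus strand) and Ccl4 at 83662584 to 83664683 (plus strand) on GRCm38, in the annotation GENCODE M21.

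The bases before the transcription start are shown for Ccl3, which chose the cells, and for 3 genes that were higher in the members and whose windows held a match searched for. Each line gives the 250 bases before the RefSeq start on GRCm38.p6, with matches in capitals.
Ccl3 (chr11:83649379-83649628, minus strand): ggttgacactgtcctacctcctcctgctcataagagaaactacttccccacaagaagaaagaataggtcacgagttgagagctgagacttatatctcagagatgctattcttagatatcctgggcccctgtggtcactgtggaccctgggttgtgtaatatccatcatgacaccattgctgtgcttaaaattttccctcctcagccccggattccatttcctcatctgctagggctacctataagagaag
Nfkbia (chr12:55492648-55492897, minus strand): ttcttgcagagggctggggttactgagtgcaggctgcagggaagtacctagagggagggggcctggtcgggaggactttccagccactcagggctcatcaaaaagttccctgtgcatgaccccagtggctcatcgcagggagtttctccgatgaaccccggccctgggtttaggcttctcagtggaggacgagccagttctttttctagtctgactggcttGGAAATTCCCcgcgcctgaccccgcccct
Tlr2 (chr3:83841609-83841858, minus strand): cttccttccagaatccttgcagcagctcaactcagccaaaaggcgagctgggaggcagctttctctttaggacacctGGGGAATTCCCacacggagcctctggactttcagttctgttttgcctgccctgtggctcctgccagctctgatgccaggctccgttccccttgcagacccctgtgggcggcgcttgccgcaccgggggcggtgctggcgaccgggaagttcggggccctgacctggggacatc
Ccl12 (chr11:82101595-82101844, plus strand): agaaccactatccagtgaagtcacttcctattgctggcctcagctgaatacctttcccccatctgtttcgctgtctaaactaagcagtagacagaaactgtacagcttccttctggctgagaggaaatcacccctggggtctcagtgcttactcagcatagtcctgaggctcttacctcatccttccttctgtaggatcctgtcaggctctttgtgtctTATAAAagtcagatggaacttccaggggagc
The search covered both strands for the κB consensus, the AP-1 motif TGANTCA, the cyclic AMP response element TGACGTCA and the TATA box TATAAA. The window of Ccl3 held none of them. The κB match of Nfkbia lay 29 to 20 bases before the start, and Tlr2 held overlapping κB matches that began 173 and 172 bases before it. The TATA box of Ccl12 began 31 bases before the start. Of the 27 genes called higher in the members (below), 22 had a window. The κB consensus occurred in 4 of these 22 genes and in 7.25% of all 32851 windows, the AP-1 motif in 1 gene and 6.75% of windows, the response element in 2 genes and 1.55%, and the TATA box in 2 genes and 12.4%. Of the 8 genes called lower, 5 had a window, and 2 of them held the κB consensus. These matches are letters only and were not tested as binding sites.

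The members were rare in every library, and replicate 4 held most of them. They numbered 4 of 3576 kept cells in replicate 1 (0.112%, 95% exact Clopper-Pearson interval 0.0305 to 0.286%). Replicate 2 had 12 of 3692 (0.325%, 0.168 to 0.567%), and replicate 3 had 11 of 2576 (0.427%, 0.213 to 0.763%). Replicate 4 had 37 of 3158 cells (1.17%, 0.826 to 1.61%). These intervals cover counting error only, not the spread between mice, of which each library holds 1. The mean share was 0.509% ± 0.461 (SD, n = 4), and by Dixon's range test the highest library did not stand apart, with a gap of 0.703 of the range. Without replicate 4 the mean was 0.288%.

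The number of UMIs in a cell bears on a threshold in raw UMIs, so the cells were also thinned to 1000 UMIs each, with 2 or more Ccl3 and Ccl4 UMIs required. Thinning left out 81, 23, 85 and 76 cells that were too shallow. The shares were then 0.200, 0.273, 0.602 and 1.14% in replicates 1 to 4, in the same order as before. Any Ccl3 or Ccl4 UMI was found in 3.02, 5.01, 5.28 and 11.2% of kept cells, and after thinning in 1.60, 1.85, 2.61 and 5.19%. No cell type that should lack these genes was present in numbers that give a background share for free RNA. Of the 67 cells with 10 or more class II UMIs (median 3288 UMIs), 7 had a Ccl3 or Ccl4 UMI, all in replicate 4.

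**Figure D1:**
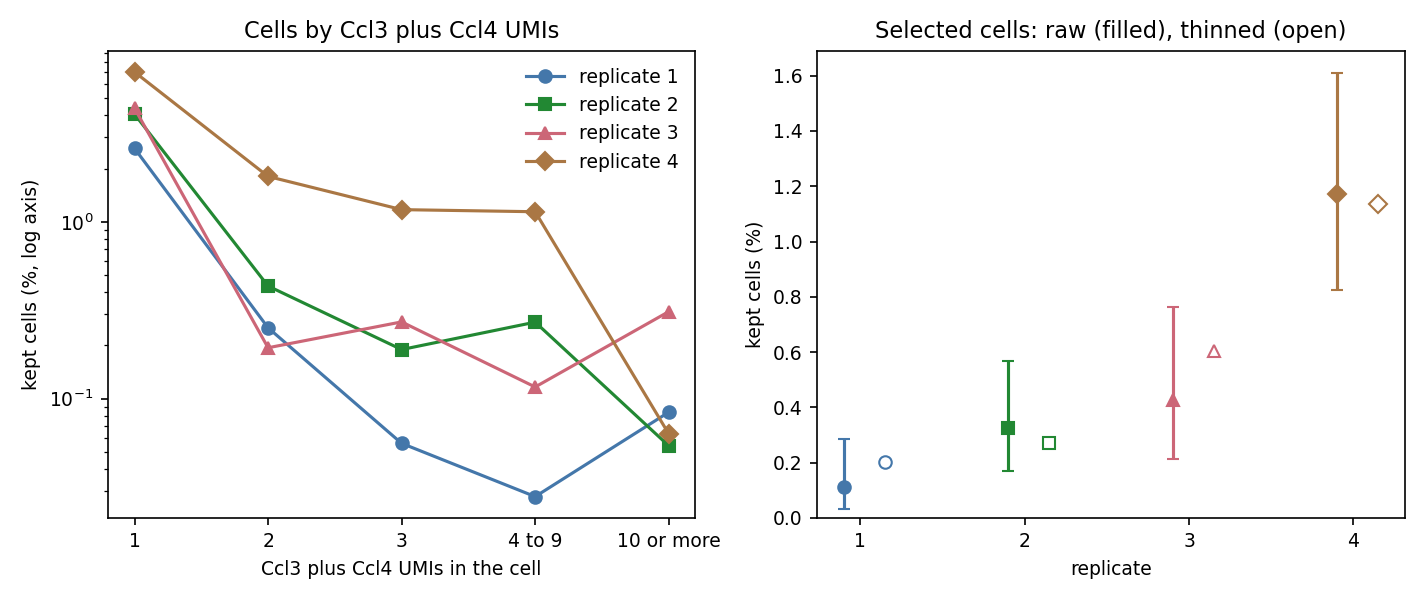
Left, percentage of kept cells (log axis) by Ccl3 plus Ccl4 UMIs in each library. Right, percentage of kept cells that were members, raw with 95% Clopper-Pearson intervals (filled) and after thinning to 1000 UMIs (open). Replicate 4 is highest up to 9 UMIs and in both shares, at 1.17% raw and 1.14% thinned, and replicate 3 is highest at 10 or more UMIs.

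The members differed widely in how much of the chemokines they carried, and this too differed by library. The median member had 6 Ccl3 and Ccl4 UMIs and the highest 219. By library the median was 15, 5, 13 and 5 UMIs in replicates 1 to 4. Members with 10 or more UMIs numbered 3, 2, 8 and 2, and those with 4 to 9 numbered 1, 10, 3 and 35. Replicate 3 therefore supplied most of the very high cells and replicate 4 most of the moderate ones. Just inside the threshold, 18 members had exactly 4 UMIs, 12 of them from replicate 4. Just outside it, 53 cells had exactly 3, 37 of them from replicate 4.

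Although 0.492% of kept cells, the members held 51.6% of all Ccl3 and Ccl4 UMIs. This share was 40.3, 33.4, 78.9 and 36.1% in replicates 1 to 4. The summed Ccl3 level in members was 2935, 1071, 4960 and 1127 CPM, and that of Ccl4 was 3332, 1205, 11929 and 940 CPM. In the cells with 1 to 3 UMIs Ccl3 stood at 251 to 348 CPM and Ccl4 at 91.1 to 188 CPM. These levels follow from the selection and were not tested.

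The balance of the 2 chemokines changed with their amount. Ccl3 made up 66.7, 73.4, 59.7 and 72.0% of the pair's UMIs in the cells with 1 to 3 UMIs, and 42.5, 36.5, 29.1 and 16.2% in the members with 10 or more. Ccl4 was thus the larger part in the very high cells of all 4 libraries, and Ccl3 in the low cells of all 4. The very high cells numbered only 3, 2, 8 and 2 in replicates 1 to 4. In replicate 2, 1 cell gave 17 of the 19 Ccl3 and 25 of the 33 Ccl4 UMIs. In replicate 4, 1 cell gave 5 of the 11 Ccl3 and 49 of the 57 Ccl4 UMIs. The agreement of the libraries therefore rests on few cells. In the members with 4 to 9 UMIs Ccl3 made up 100, 58.0, 37.5 and 68.4% in replicates 1 to 4, the first from 1 cell and the third from 3 cells, so this class did not lie on 1 side in all libraries. Since these classes were cut on the sum of the pair, the shift is given without a test. By cell, 40 members had both transcripts, 17 had Ccl3 alone and 7 had Ccl4 alone. Ccl3 was the higher in 24 of 37 members of replicate 4, and Ccl4 in 9 of 11 of replicate 3.

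**Figure D2:**
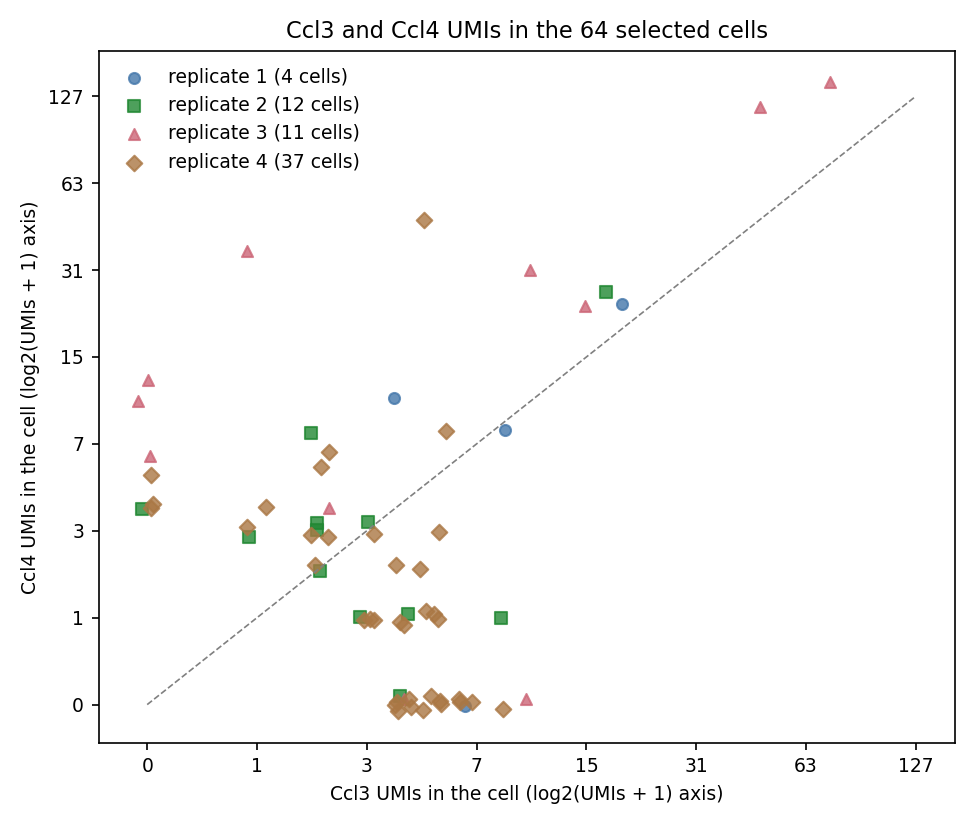
Ccl3 UMIs (x) against Ccl4 UMIs (y) in each of the 64 members, on log2(UMIs + 1) axes with a small random offset so that equal values can be seen; the dashed line marks equal counts. Replicate 4 cells crowd at the lower left, and 24 of the 37 lie below the line, with more Ccl3 than Ccl4. The cells with the most UMIs, from replicate 3, lie above the line.

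The 3 members with the most UMIs of the pair show the range. The highest, in replicate 3, had 72 Ccl3 and 147 Ccl4 UMIs of 2812 in all, with 9 Cd83 and 0 Id2 UMIs. The next, also in replicate 3, had 45 and 111 of 3088, with 4 Cd83 and 2 Id2 UMIs. The third, in replicate 4, had 5 and 49 of 3325, with 9 Cd83 and 12 Id2 UMIs. At such depths a count of 0 does not show that a transcript was absent from a cell.

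As a group the members resembled microglia by their markers. P2ry12, a purinergic receptor, Csf1r, the CSF1 receptor, and the complement subunits C1qa and C1qc were each detected in 64 of 64 members. Tmem119, a membrane protein used to mark microglia, was detected in 62. The 18 genes of the study's microglial identity list took a median of 7.76, 8.03, 6.30 and 7.68% of a member's UMIs in replicates 1 to 4, and 8.47, 8.54, 8.35 and 8.43% in comparison cells. The lowest member, in replicate 2, had 1.11% and is described further on. Markers of other cells were scarce. All 7 neutrophil, 8 T and NK cell, 6 neuron, 4 erythroid and 5 mast cell and basophil markers had 0 UMIs in the members. Of 11 border macrophage markers, 8 were at 0, among them Pf4, Lyve1 and Cd163, and 38 of the 40 UMIs of that list were Stab1. Of 9 monocyte markers 7 were at 0, including Ly6c2, with 4 UMIs in all, and of 7 dendritic cell markers 5 were at 0, with 3 UMIs in all.

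The remaining marker lists gave few UMIs or genes that the comparison cells also expressed. B cell markers amounted to 58 UMIs, of which 48 were Ighm, at 188 to 246 CPM in members and 294 to 328 CPM in comparison cells, with Cd79a and Ms4a1 at 0. Of the 50 astrocyte marker UMIs, 48 were Slc1a3, at 0 to 259 CPM in members and 221 to 279 CPM in comparison cells. Oligodendrocyte, endothelial and proliferation markers had 9, 10 and 12 UMIs. None of these lists had a gene called in either direction.

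The other label markers were less uniform. Id2 was detected in 28 of 64 members, Atf3, a stress-induced transcription factor, in 19, and Csf1, the growth factor on which microglia depend, in 9. At the median depth of the members, 2793 to 3699.5 UMIs by library, transcripts at the pooled levels of Atf3 and Csf1 in members, 193 and 84.7 CPM, average under 1 UMI a cell, so these numbers do not give the share of members that express them. These markers had been picked with results of these data known.

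The members had more UMIs than comparison cells, as a threshold in raw UMIs favours. The median was 3231 against 1897 in replicate 1, 3699.5 against 2924 in replicate 2, 2793 against 2187.5 in replicate 3 and 3098 against 2762.5 in replicate 4. The mean log2 ratio was 0.41 ± 0.26 (SD, n = 4), higher in 4 of 4 libraries (exact two-sided sign-flip permutation test, p = 0.13, the smallest that 4 pairs allow). With the threshold set as a rate per UMI instead, the mean log2 ratio was 0.13 (exact p = 0.875).

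For all other genes, UMIs were summed over the members and over the comparison cells of each library and fitted with edgeR's quasi-likelihood test, the library as a block. The members' sums were small, with 12605, 44798, 31856 and 123361 UMIs, so that 1 UMI was worth 79.3 CPM in replicate 1. Of 1622 genes at a mean of 100 CPM or more, 27 were higher in members (1.66%) and 8 lower (0.493%) at an adjusted p (Benjamini-Hochberg) under 0.05 and a log2 difference over 0.58. The median log2 difference over all genes tested was 0.00. Of the 35 genes called, 24 were higher and 8 lower in all 4 libraries. Without replicate 4 the counts were 30 higher and 16 lower, and without replicate 3 they were 9 higher and 4 lower, so replicate 3 carried many of the calls. With a weaker filter on low counts, which shifted the median log2 difference of the 1622 genes by -0.25, the split was 36 higher to 20 lower, and 11 of the 27 and all 8 lower genes were among them. With no filter 48 were higher and 15 lower, with 7 of the 27 and all 8 lower genes among them. Relative to that shift fewer of the moderate rises passed: Cd9 and Nfkbia lost their calls under both, and Cd63, C3ar1, C5ar1 and Plek with no filter. With comparison cells matched to the members in UMIs, 25 genes were higher and 5 lower.

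Id2, an inhibitor of basic helix-loop-helix transcription factors (chr12:25093799-25097140), had the largest rise among the genes called with the filter on low counts; Ccl2, Lpl and Atf3, described further on, had larger values that were not called with it. It stood at 159, 781, 408 and 332 CPM in members of replicates 1 to 4, and at 38.0, 36.9, 51.8 and 57.9 CPM in comparison cells. The groups did not overlap. The log2 difference was 3.17 ± 0.37 (SE; edgeR adjusted p = 1.0e-04), and it was called under all 23 other settings, at 2.59 to 3.80. In replicate 2, 21 of the 35 Id2 UMIs came from 1 cell. Id2 passed the filter through the members, since its comparison cells lay below 100 CPM, as did those of Hif1a, Tlr2 and Eif3a. Like Atf3 and Csf1 below, Id2 is a label marker picked with results of these data known. The settings also reuse cells of the same 4 libraries. The adjusted p of Id2 and its kept calls are thus not independent support.

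Cd83, a surface protein of activated antigen presenting cells and a target of NF-κB (chr13:43784775-43803132), came next. Members had 397, 379, 1601 and 300 CPM and comparison cells 115, 102, 91.0 and 93.2 CPM, again without overlap. The log2 difference was 2.52 ± 0.34 (SE; edgeR adjusted p = 1.9e-04), and it was called under all 23 other settings. Replicate 3 was far above the others. In the pooled sums Cd83 stood at 1295 CPM in members with 10 or more chemokine UMIs and 305 CPM in those with 4 to 9. These pooled values mix libraries, since 8 of the first 15 cells came from replicate 3 and 35 of the other 49 from replicate 4. Within replicates 1 to 4 the former stood at 570, 931, 1649 and 1443 CPM and the latter at 0, 268, 1474 and 239 CPM, so Cd83 was higher in the very high cells of all 4 libraries. The sums were small, with 5 to 38 UMIs in the former and 0 to 28 in the latter, and the difference was not tested.

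Atf3 (chr1:191170296-191218039) and Csf1 (chr3:107741048-107760469) were higher in value but rested on few UMIs. Atf3 had 79.3, 469, 157 and 113 CPM in members and 10.1 to 11.8 CPM in comparison cells. Its log2 difference of 4.01 ± 1.39 (SE) was not called (edgeR adjusted p = 0.15), but with no filter on low counts it was 3.88 and called (edgeR adjusted p = 1.3e-16). Of its 41 UMIs in members, 13 came from 1 cell of replicate 2. Csf1 had 0, 134, 188 and 48.6 CPM in members and 5.53 to 6.41 CPM in comparison cells. The 0 of replicate 1 allows up to 238 CPM, a limit of 3 UMIs that covers counting error only. Csf1 was too low to be tested with the filter and was called without it, at 3.65 (edgeR adjusted p = 2.6e-08). The verdict on both genes thus hung on the filter.

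**Figure D3:**
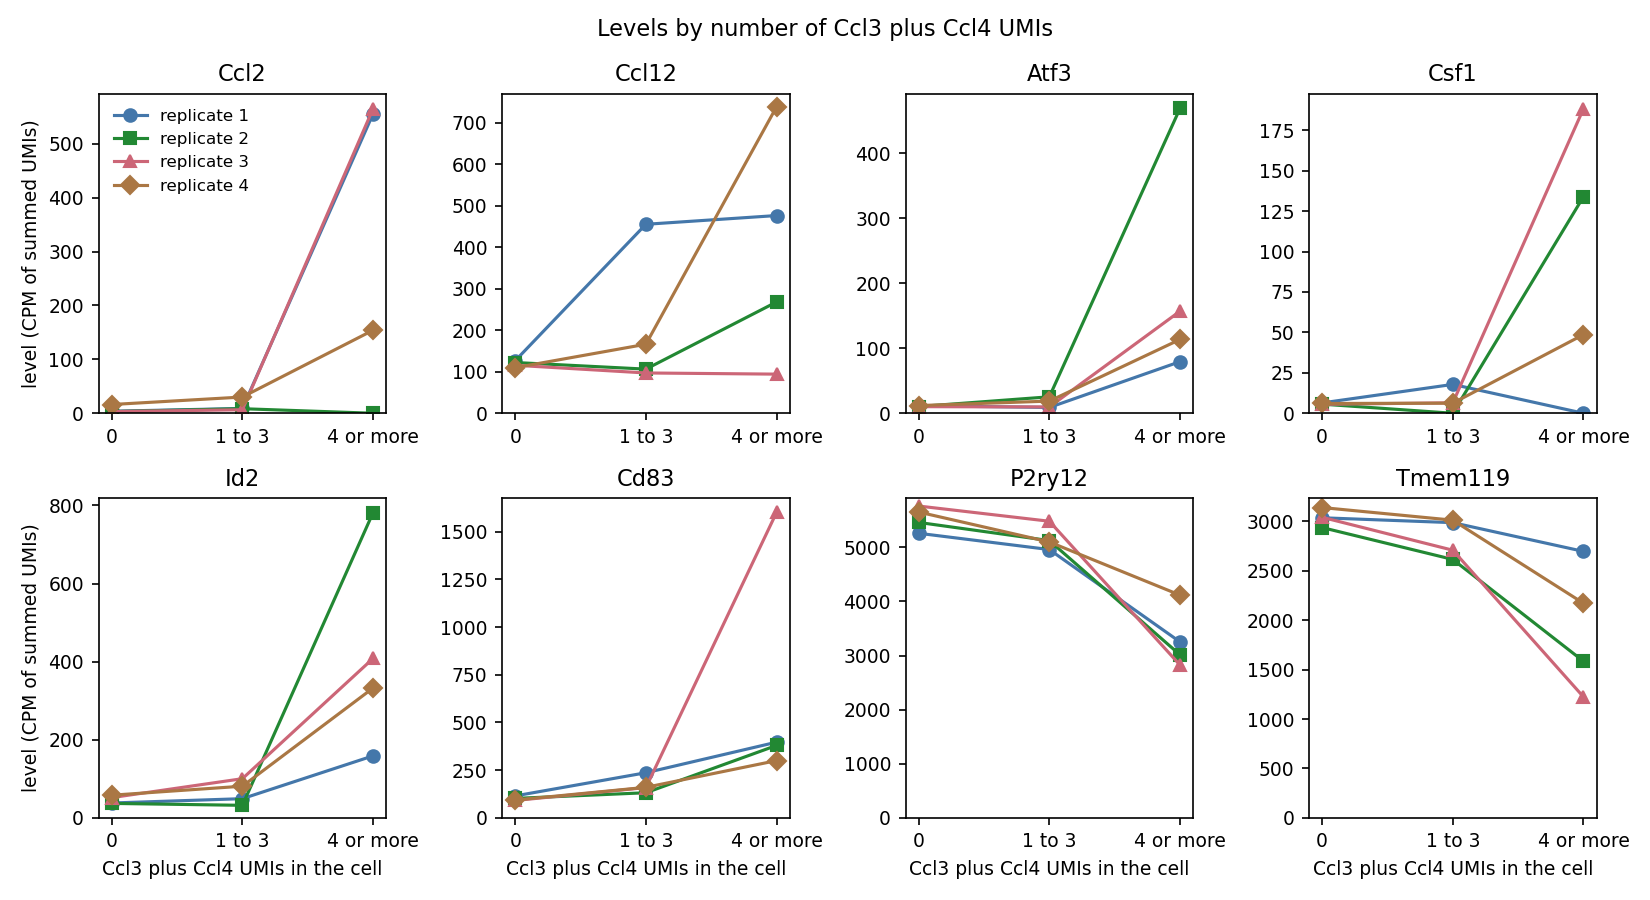
Level (CPM of summed UMIs, linear axes from 0) of 8 genes in cells with 0, with 1 to 3 and with 4 or more Ccl3 and Ccl4 UMIs (members), 1 line per library. Atf3, Id2 and Cd83 are higher in members than in cells with 0 in every library and P2ry12 and Tmem119 lower, while Ccl2, Ccl12 and Csf1 are uneven between libraries.

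The gene lists here and below were chosen with earlier results of these data known. Their counts of calls, set beside the share of all genes, therefore do not test enrichment. Among the other chemokine ligands 1 of 5 tested genes was called higher, against 1.66% of all genes, with a median log2 difference of 0.89 against 0.00 over all genes. Of the 5, Ccl2 and Cxcl16 passed the filter only through the members, which pushes such a median up, and over the other 3 it was 0.53. The gene called was Ccl12, a monocyte chemoattractant. It had 476, 268, 94.2 and 738 CPM in members and 110 to 126 CPM in comparison cells, so it was higher in 3 of 4 libraries, with replicate 3 below its comparison cells. The log2 difference was 1.84 ± 0.33 (SE; edgeR adjusted p = 0.0029). A single cell of replicate 4 supplied 43 of its 112 UMIs, and without replicate 4 the difference was 0.91 and not called (edgeR adjusted p = 0.27).

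Ccl2, the main monocyte chemoattractant, was nearly silent outside the members. It had 555, 0, 565 and 154 CPM in members and 3.72, 3.05, 3.13 and 16.2 CPM in comparison cells. The 0 of replicate 2 allows up to 67.0 CPM. The log2 difference of 5.19 ± 2.16 (SE) was not called (edgeR adjusted p = 0.24), and with no filter it was 4.76 and called (edgeR adjusted p = 2.8e-23). Ccl6, Ccl9 and Cxcl16, ligands expressed in comparison cells too, were not called, with log2 differences of 0.53, 0.34 and 0.89.

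Of the chemokine receptors 0 of 2 tested genes were called in the edgeR fit. Cx3cr1, the fractalkine receptor that marks microglia, differed by -0.17 (edgeR adjusted p = 0.43).

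Of 8 tested genes of the NF-κB pathway and its targets 4 were higher and 0 lower, against 1.66% of all genes higher, with a median log2 difference of 0.90. Tlr2 and Icam1 passed the filter only through the members, and of the other 6 genes 3 were higher, with the same median of 0.90. This list too was chosen with earlier results known, so its counts do not test enrichment. Besides Cd83 the genes called were Plek, Tlr2 and Nfkbia. Plek, pleckstrin, a protein kinase C substrate, had 235 to 502 CPM in members and 131 to 161 CPM in comparison cells (1.29 ± 0.25 SE, edgeR adjusted p = 0.0061). Tlr2, a receptor for bacterial lipoproteins, had 159, 580, 408 and 105 CPM against 87.0 to 107 CPM (1.51 ± 0.35 SE, edgeR adjusted p = 0.026). Replicates 1 and 4 were thus close to their comparison cells, and the Tlr2 call was lost without any 1 of replicates 1, 2 or 3. The call of Plek was lost without replicate 3.

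Nfkbia encodes IκBα, the inhibitor that NF-κB itself induces. It had 317, 759, 502 and 332 CPM in members and 295, 195, 223 and 232 CPM in comparison cells. The groups did not overlap, but the members of replicate 1 had 4 UMIs, and 3 UMIs equal 238 CPM there. The difference in that library was thus under 1 UMI. The log2 difference was 1.04 ± 0.25 (SE; edgeR adjusted p = 0.026). In replicate 2, 18 of its 34 UMIs came from 1 cell, and the call was lost without that cell and without replicate 2 or 3. After thinning to 1000 UMIs, 20.3% of members and 20.2% of comparison cells had an Nfkbia UMI, pooled over the libraries. The next gene of the list, Bcl2a1b, differed by 0.75 and missed the threshold (edgeR adjusted p = 0.050); it has near-identical copies. The list as a whole summed to 3173, 4889, 6247 and 3072 CPM in members and 2091 to 2272 CPM in comparison cells.

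Of the immediate early and AP-1 genes, 1 of 12 tested was higher, against 1.66% of all genes, and 0 lower. The median was 0.57, or 0.53 over the 8 that did not pass the filter through the members alone. Junb, an AP-1 subunit, had 714, 938, 1099 and 811 CPM in members and 312, 311, 290 and 493 CPM in comparison cells. The log2 difference was 1.26 ± 0.19 (SE; edgeR adjusted p = 5.5e-04), and it stayed called without each of the 4 libraries. Members were above comparison cells in all libraries, replicate 4 with its high immediate early genes included. Ier2, another immediate early gene, differed by 2.38 (edgeR adjusted p = 0.080), Jun by 0.59 (0.11) and Ier5 by 0.54 (0.12). None of these 3 was called; Ier2 was called with no filter (1.88, edgeR adjusted p = 1.6e-04).

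Egr1 and Fos, immediate early transcription factors, were uneven between libraries. Fos had 0, 22.3, 31.4 and 430 CPM in members and 5.96, 13.6, 11.1 and 134 CPM in comparison cells. Egr1 had 476, 0, 62.8 and 292 CPM in members and 2.98, 6.87, 5.90 and 99.0 CPM in comparison cells (log2 difference 2.84, edgeR adjusted p = 0.15). With no filter both were called (edgeR adjusted p = 0.024 for Fos and 1.7e-04 for Egr1). In replicate 4 both genes were high in comparison cells and higher in members. The list took a median of 0.398, 0.367, 0.430 and 0.648% of a member's UMIs and 0.305, 0.333, 0.328 and 0.478% of a comparison cell's. Of the study's activation list, 1 of 11 tested genes was higher (Junb), against 1.66% of all genes. The median was 0.54, or 0.51 over the 9 that did not pass the filter through the members alone. The study built this list on other mice, from microglia digested with enzymes without inhibitors, and treats it as a signature of cell isolation. It includes Ccl3 and Ccl4, which chose the members and were left out here. The study also reported rare Ccl4-positive microglia in snap-frozen tissue. Several genes of the list are also among the immediate early and AP-1 genes.

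The inhibitors of differentiation and TGF-β genes had 1 of 7 tested genes higher, against 1.66% of all genes, with a median of 0.15. The gene called was Id2, a label marker that passed the filter through the members. Of the other 6 genes 0 were higher, with a median of 0.08. Nrros, which tethers latent TGF-β, differed by 0.71 (edgeR adjusted p = 0.11), and Tgfbr1 by -0.26 (0.54). Feedback phosphatases and mRNA decay factors had 0 of 6 called, with a median of -0.46. The most abundant, Rgs10 and Rgs2, regulators of G protein signalling, differed by -0.39 and -0.63 (edgeR adjusted p = 0.11 and 0.17). Of the cytokines and growth factors 0 of 3 tested were called. Tgfb1 differed by -0.04 and Il16 by -1.08 (edgeR adjusted p = 0.999 and 0.062). Il1a, outside the naming rule, had 130 to 238 CPM in members and 77.0 CPM in the pooled comparison cells (1.09, edgeR adjusted p = 0.11). Tnf and Il1b, classical inflammatory cytokines also named after their values were seen, were too low to be tested with the filter. Il1b had 1 UMI in all members. Tnf had 7 UMIs in 5 members, at 0, 112, 0 and 16.2 CPM, against 0.894 to 3.21 CPM in comparison cells, and with no filter it was called (3.48, edgeR adjusted p = 0.0097).

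The remaining genes with the largest rises were receptors, membrane proteins and general factors. Hif1a, the hypoxia-inducible transcription factor, differed by 1.59 ± 0.40 (SE; edgeR adjusted p = 0.038), from 79.3 to 188 CPM in members and 49.4 to 53.8 CPM in comparison cells; replicate 1 rested on 1 UMI, and the gene passed the filter in only 1 of the 4 fits that left out a library. Slc15a3, a lysosomal peptide and histidine transporter, had 397, 290, 534 and 511 CPM against 146, 136, 173 and 190 CPM (1.38 ± 0.20 SE, edgeR adjusted p = 2.9e-04). The receptors of the complement fragments C3a and C5a rose together. C3ar1 had 317 to 826 CPM in members and 245 to 255 CPM in comparison cells (1.22, edgeR adjusted p = 0.0015), and C5ar1 had 454 to 910 CPM against 224 to 264 CPM (1.17, edgeR adjusted p = 0.0032). Without replicate 3 the call of C5ar1 was lost.

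Smaller rises were seen in 4 genes of unlike roles. Ccnl1, a cyclin tied to splicing, differed by 1.11 (edgeR adjusted p = 0.011). Mt1, a metal-binding metallothionein, differed by 1.10 (0.026), and Mif, a secreted cytokine, by 1.08 (0.017). Eif5, a translation initiation factor, differed by 0.94 (0.026). Each of these lost its call without at least 1 of the libraries.

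Of the genes associated with disease-associated microglia, 3 of 18 tested were higher, against 1.66% of all genes, and 0 lower. The median was 0.30, or 0.27 over the 15 that did not pass the filter through the members alone. The tetraspanin Cd63 had 873, 2388, 1852 and 1362 CPM in members and 755, 813, 657 and 640 CPM in comparison cells (1.21 ± 0.16 SE, edgeR adjusted p = 1.6e-04). Cd9, another tetraspanin, had 3015, 4375, 4960 and 3186 CPM against 1826 to 2105 CPM (0.94 ± 0.12 SE, edgeR adjusted p = 1.6e-04). Ctsb, the lysosomal protease cathepsin B, had 3173 to 5023 CPM against 2506 to 2770 CPM (0.72, edgeR adjusted p = 8.6e-04). All 3 were higher in members in every library. In cells with 1 to 3 chemokine UMIs all 3 lay above the comparison cells in every library and below the members in replicates 2 to 4. In replicate 1, whose members were 4 cells, they lay above the members for Cd63 (1093 against 873 CPM) and Ctsb (3528 against 3173 CPM) but not for Cd9 (2600.3 against 3015 CPM). Ctsz and Fth1 were not called, with differences of 0.48 and 0.34.

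Other genes known from the disease-associated state were found in few members. Lpl, a lipoprotein lipase, had 0, 804, 879 and 32.4 CPM in members and 4.29 to 8.84 CPM in comparison cells (log2 difference 5.18, edgeR adjusted p = 0.19). Its 68 UMIs came from 9 cells, 27 of them from 1. Lgals3, galectin-3, had 40 UMIs in 6 cells, 32 of them in 1. With no filter both were called (edgeR adjusted p = 1.1e-36 and 7.2e-12). Spp1 and Igf1 had 0 UMIs in the members, which allows up to 14.1 CPM. These genes were picked after their values were seen.

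The cells that stood out can be given singly. A member of replicate 2 had only 1.11% of its 5383 UMIs in identity genes. It carried 32 Lgals3, 28 Lilr4b, 26 Lpl, 26 Cebpb, 21 Id2, 18 Nfkbia and 13 Atf3 UMIs, but 2 each of Ccl3, Ccl4 and P2ry12. It was the member lowest in identity genes, and 2 of the 3507 comparison cells of that library were lower still. Without it 20 genes were called higher, all among the 27, and 8 lower. A member of replicate 3 with 35 Ccl4 UMIs and 1 of Ccl3 had 27 Lpl and 17 Cd83 UMIs and 1 of P2ry12.

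Of the 8 genes called lower, 4 kept their calls without each of the libraries: P2ry12, Tmem119, Selplg and Slc2a5. P2ry12 (chr3:59216272-59262871), the ADP receptor that guides microglial processes, had 3253, 3014, 2825 and 4118 CPM in members and 5261, 5461, 5765 and 5653 CPM in comparison cells. The groups did not overlap, and the log2 difference was -0.77 ± 0.11 (SE; edgeR adjusted p = 2.9e-04). Tmem119 (chr5:113793729-113800516), a membrane protein used to mark microglia, had 2697, 1585, 1224 and 2172 CPM against 3038, 2939, 3042 and 3141 CPM (-0.76 ± 0.14 SE, edgeR adjusted p = 0.0029). Selplg, the P-selectin ligand, had 3570, 2143, 1852 and 3664 CPM against 4618 to 4894 CPM (-0.83 ± 0.14 SE, edgeR adjusted p = 0.0013). Slc2a5, a fructose transporter, had 268 to 462 CPM against 664 to 750 CPM (-0.95 ± 0.18 SE, edgeR adjusted p = 0.0048).

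Detection in thinned cells went the same way. Pooled over the libraries, a P2ry12 UMI was found in 87.5% of members and 98.4% of comparison cells, and a Tmem119 UMI in 75.0 and 93.3%. The fall was visible in both parts of the members. In pooled sums, which mix libraries, P2ry12 stood at 2853 CPM in members with 10 or more chemokine UMIs and 3855 CPM in those with 4 to 9. Pooled comparison cells had 5520.3 CPM. Within replicates 1 to 4 the former stood at 2736, 3194, 2691 and 3207 CPM and the latter at 4434, 2977, 3176 and 4167 CPM. Both lay below the comparison cells of every library, while the former were above the latter in replicate 2.

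The other 4 genes called lower were Glul, glutamine synthetase (-0.62, edgeR adjusted p = 0.031), Hmha1, a minor histocompatibility antigen gene (-0.70, 0.038), Susd3, a membrane protein (-0.74, 0.035), and the uncharacterized 0610040J01Rik (-1.34, 0.046). Each lost its call without at least 3 of the 4 libraries taken in turn.

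Of the study's identity list, 2 of 18 tested genes were lower and 0 higher, against 0.493% of all genes, with a median of -0.22. All 18 had a difference below 0. Besides P2ry12 and Tmem119, Olfml3, a secreted matrix protein, had -0.54 (edgeR adjusted p = 0.024), short of the fold limit, and Fcgr3 and P2ry13 had -0.43 and -0.47 (0.099 and 0.0999). Of the homeostatic surface and transcription factor genes, 3 of 20 were lower (P2ry12, Selplg, Slc2a5), with a median of -0.22, and P2ry13 and Lpcat2 (-0.43, 0.11) had the next smallest adjusted p. Spi1 and Irf8, transcription factors of the myeloid lineage, had -0.21 and 0.25 and were not called (0.67 and 0.47).

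**Figure D4:**
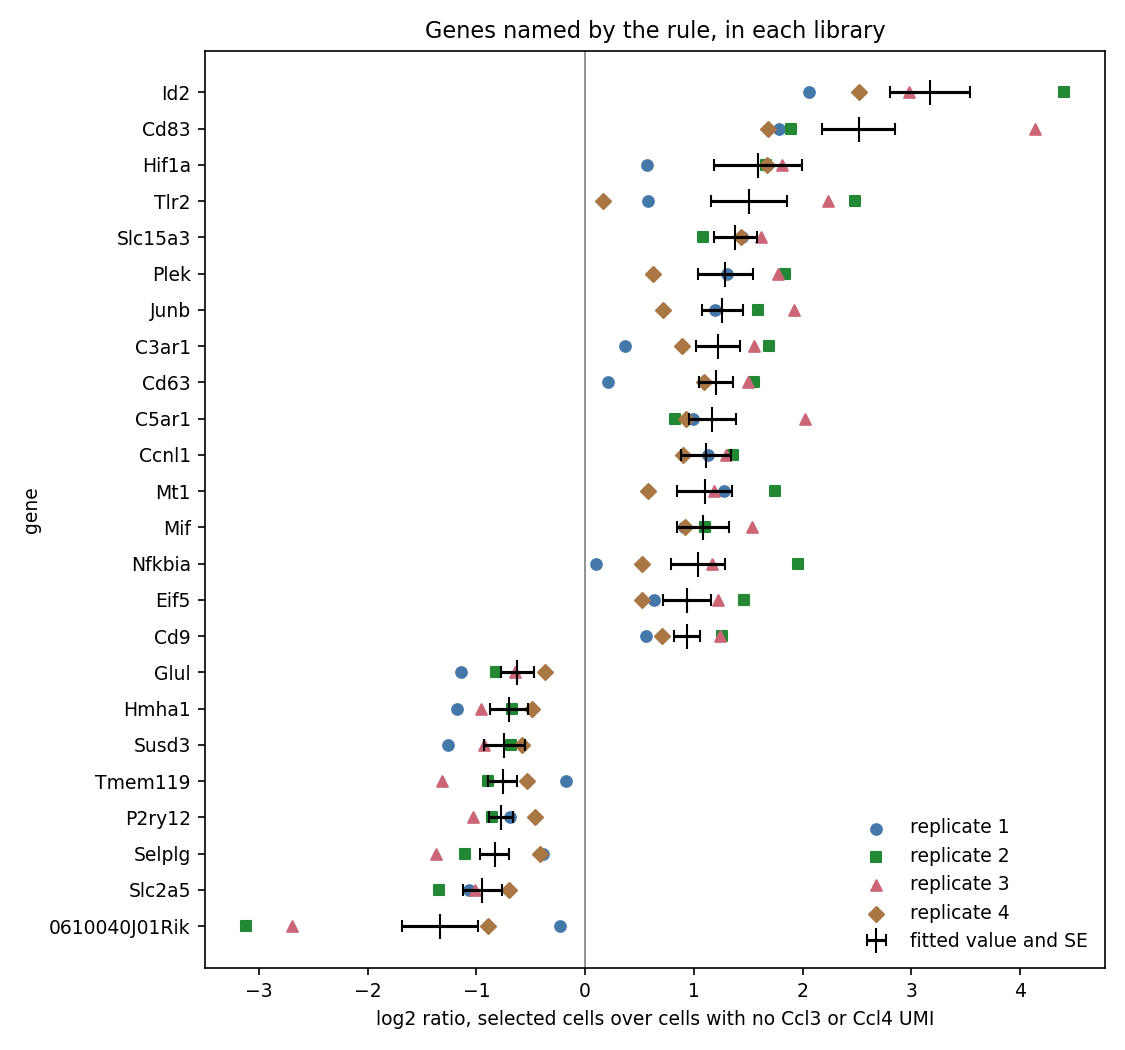
Log2 ratio of the level in members to that in comparison cells for the 16 genes that rose and the 8 that fell by the naming rule, with 1 symbol per library and the fitted value with its SE in black. All symbols of the genes that rose lie right of 0 and all of those that fell lie left, and Id2 and Cd83 have the widest distance from 0 among the former.

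Among the other lists, iron and oxidative stress genes had 2 of 7 tested higher, against 1.66% of all genes. Their median was 0.59, or 0.46 over the 6 that did not pass the filter through the members alone. The genes called were Nfe2l2, the antioxidant regulator NRF2 (0.86, edgeR adjusted p = 0.035), and Ftl1, ferritin light chain (0.59, 0.035). Ftl1 was higher in 3 of 4 libraries and has processed copies. Fth1, Prdx1 and Sqstm1 had 0.34, 0.69 and 1.05 and were not called. Chaperones had 1 of 8 higher, Hsp90ab1 (0.58, edgeR adjusted p = 0.014). Their median was 0.37, or 0.33 over the 6 that did not pass the filter through the members alone. Hspa8 had 0.25 and was not called. Lipid handling genes had 0 of 5 called in the edgeR fit; Lpcat2 and Npc2 had -0.43 and 0.23.

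Class II and antigen presentation genes outside the rule had 0 of 6 called, with a median of 0.12; B2m and H2-D1, of class I, had 0.14 and 0.37. Cd74 itself, a gene of the rule, stood at 159, 67.0, 314 and 97.3 CPM in members and 220, 124, 229 and 536 CPM in comparison cells, and 20 of 64 members had a UMI of 1 of the 4 class II genes. When such members were excluded, 8 genes were called higher, all among the 27, and 4 lower. Interferon-responsive genes had 0 of 2 called; Slfn2 and Bst2 had 1.75 and 0.34 (edgeR adjusted p = 0.065 and 0.61), and Slfn2 was called with no filter (1.48, edgeR adjusted p = 0.021).

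The lists with 0 genes called by edgeR held 27 tested genes in all. At an unadjusted p under 0.05 there were 14 of them, with 5 of 6 feedback genes, 3 of 5 lipid handling genes, 2 of 3 cytokines, and, among others, Slfn2 of the interferon-responsive genes, H2-D1 of the antigen presentation genes and Ighm of the B cell markers, which was lower in members. DESeq2 called 1 of the 27, Lpl, which is also a lipid handling gene.

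Without replicate 4 the list medians, taken over all tested genes of a list, kept their signs. They were 0.91 for chemokine ligands, 1.28 for NF-κB genes, 0.59 for immediate early genes, 0.43 for the study's activation list, 0.20 for disease-associated genes and -0.34 for the identity list. The calls of the 4 NF-κB genes, Junb and Id2 remained, and no chemokine ligand was called. On the identity list 5 genes were then lower, with Olfml3, Fcgr3 and Laptm5 beside P2ry12 and Tmem119. Lpl (6.28, edgeR adjusted p = 0.020) was then called higher, as was Slfn2, and the feedback gene Rgs2 was called lower.

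**Figure D5:**
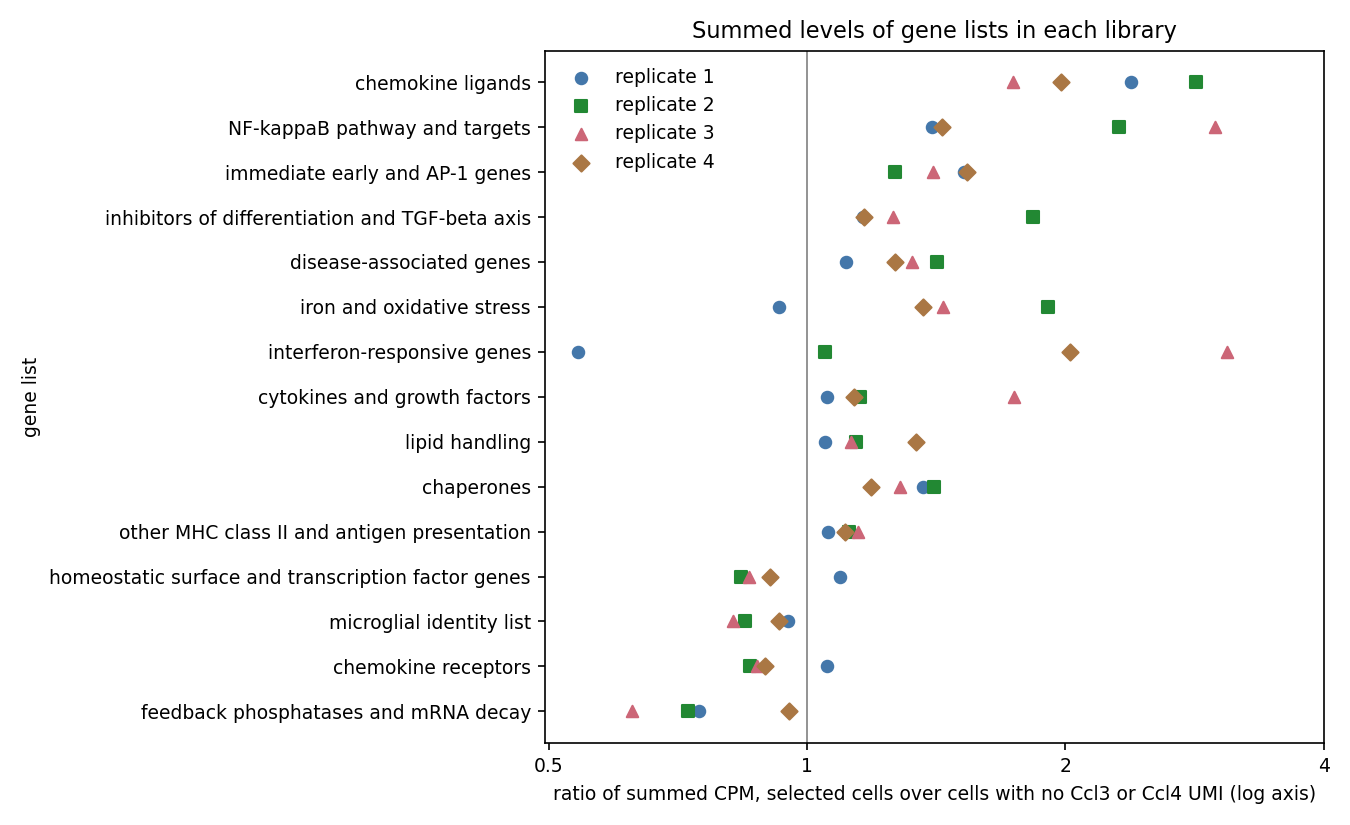
Ratio of the summed level of each gene list in members to that in comparison cells (log axis), 1 symbol per library, with the genes of the selection rule left out. Chemokine ligands, NF-κB genes, immediate early genes and disease-associated genes lie right of 1 in all libraries. So do the cytokines, inhibitors of differentiation, chaperones, antigen presentation genes and lipid handling genes. The identity list and the feedback genes lie left of 1 in all.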

How the data were processed

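Each of the 4 libraries was deposited as whole-number UMI counts per gene and cell, made by the authors with bcl2fastq and Cell Ranger 2.2.0 on mm10 (GRCm38), unnormalized and after cell calling. The submitters' notes also name Seurat. Strand and multimapping settings beyond Cell Ranger's are not given in the sources used here. Members and gene lists were chosen with earlier results of these data known. No doublets were called or removed. Counts were summed per library over members and over comparison cells, without the 13 mitochondrial and 6 rule genes, and fitted in edgeR 4.0.16 (TMM, quasi-likelihood, library as block, 8 sums, mean of at least 100 CPM), with Benjamini-Hochberg adjustment. The pairing comes from the mouse, since both sums of a library share 1 animal. The p-values measure how far the difference between the 2 sums of a mouse varied over 4 mice. That variation includes the sampling of only 4 to 37 members per sum. The sums do not show whether a gene's UMIs came from 1 cell or many. Genes named were the 16 highest and 10 lowest log2 differences among those called and changed the same way in all libraries (8 qualified as lower), the label markers, and in each list the smallest adjusted p, or the most abundant where none was called. Other genes named were chosen after their values were seen. The fit was tested on simulated data. DESeq2 1.42.0 was an alternative. Identifiers were matched to GENCODE M21, and promoters came from RefSeq (GRCm38.p6). Dixon's test compared the 4 libraries. Some genes are not reported here.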

Additional observations from a re-analysis of the deposited data

Results flagged for a closer look

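Of 56 values tested over the 4 libraries with Dixon's range test, 7 had 1 library far from the others; chance alone gives about 1 in 20. Replicate 3 was the highest in 5 of them. Its members held 78.9% of the library's Ccl3 and Ccl4 UMIs (33.4% in the lowest library). Members with 10 or more of these UMIs were 0.311% of its kept cells (0.0542% in the lowest). Both values come from the UMIs that chose the members, so they describe the selection and support no further result. The members of replicate 3 held 538 such UMIs, and the highest cells had 219 and 156. The summed level of cytokines and growth factors in its members was 1883.5 CPM (1111 CPM in the lowest), and Cd83 in its members reached 10.73 as log2(CPM + 100), against 8.64 in the lowest. C5ar1, on the same scale, was highest there too, at 9.98 against 9.11.

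Replicate 4 was the highest in the summed immediate early and AP-1 genes of its members, at 8187 CPM against 4420 CPM in the lowest library. Its comparison cells were also the highest for this list. Replicate 2 had the highest median mitochondrial share among members, 1.66% against 1.32% in the lowest. The part of these libraries in the gene calls was tested only by leaving each out.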

How the results depend on the processing

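Genes called higher numbered 27 and genes called lower 8. Without each library in turn the counts were 9 to 30 and 4 to 16. Without the library block they were 32 and 9; the replicate block changed neither count by over 1.5 times. The count of higher genes became 48 with no expression filter, 14 at a threshold of 6 UMIs, 8 without members that had a class II UMI, 7 with only members of 10 or more UMIs and 15 with only those of 4 to 9; the last 2 were chosen after seeing the data. The count of lower genes became 5 with DESeq2, 20 with filterByExpr, 15 with no expression filter, 4 without members that had a class II UMI, 5 with depth-matched comparison cells, 4 at 1000 genes or more and 3 with members of 4 to 9 UMIs. With fewer members the sums hold fewer UMIs; otherwise the cause was not tested. No filter and filterByExpr moved the median of the 1622 genes by -0.27 and -0.25. None of the 24 named genes changed direction in any setting in which it was tested, and Id2, Cd83, Selplg and P2ry12 kept their calls in all 23. The share of members was 0.288 to 0.641% and the log2 ratio of UMIs 0.29 to 0.49 without each library. Depth limits the members: 3 UMIs equal 238 CPM in replicate 1 and 24.3 CPM in replicate 4.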

Other observations

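A few other genes reached high levels in the selected cells through single cells. Ifit3, an interferon-induced gene, had 22 UMIs in members, 16 of them in 1 cell, in 2 cells in all, and stood at 0, 0, 188 and 130 CPM in replicates 1 to 4 (called with no filter, edgeR adjusted p = 1.6e-05). Apoe, the apolipoprotein of activated microglia and border macrophages, had 314 UMIs in 34 members, 113 of them in 1 cell, and was highest in replicate 4, at 2213 CPM in members and 1057 CPM in comparison cells (log2 difference over all libraries 0.34, edgeR adjusted p = 0.58). Plaur, the urokinase receptor and an NF-κB target, was spread more evenly, with 23 UMIs in 14 members and at most 5 in any, at 0, 67.0, 251 and 97.3 CPM in members and 10.1 to 14.6 CPM in comparison cells. It was called only when the filter on low counts was relaxed (2.88, edgeR adjusted p = 9.4e-06 with no filter). Ccrl2, an atypical receptor that binds chemerin, had 73.0 to 94.2 CPM in members and 14.0 to 18.8 CPM in comparison cells in every library, with 17 UMIs in 12 members (2.00 with no filter, edgeR adjusted p = 0.042). These genes were chosen after their values were seen.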
